A study of Homo sapiens with 4 samples.

Results

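The genes described here are long intergenic noncoding RNAs of the LINC series, which are numbered lncRNA genes with no assigned function name. They were selected on level: the symbol had to be LINC followed by digits, without an antisense ending, and the mean over the 4 libraries had to reach 0.5 CPM (counts per 1000000 counts of the library). Of 62700 gene identifiers in the count tables, 2243 were LINC lncRNA genes, and 236 of these met the rule. The remainder included 1218 LINC genes with no count in any library. The choice used the level over all libraries and not the difference between groups. At the limit, LINC00334 (0.501 CPM), LINC02532 (0.503 CPM) and LINC01583 (0.503 CPM) were just inside, while LINC00882 (0.491 CPM), LINC00921 (0.489 CPM) and LINC02649 (0.484 CPM) were just outside.

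LINC genes lie for the most part between protein-coding genes and are transcribed by RNA polymerase II (Pol II). Many of their transcripts are capped, spliced and polyadenylated like mRNAs, though they are usually spliced less efficiently and held more often in the nucleus. The polyadenylation machinery recognises the hexamer AATAAA, or its weaker form ATTAAA, shortly before the cleavage site, and it is brought to the gene in part by the C-terminal domain (CTD) of RPB1, the largest Pol II subunit. The CTD is a tail of repeated heptads in which threonine is the usual residue at position 4.

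To ask how this threonine bears on transcription, the study sequenced poly(A) RNA of HEK293T, an established human embryonic kidney cell line, after transient transfection with an RPB1 construct. In the T4A group the construct carried alanine in place of threonine at position 4 of the CTD repeats, and in the WT group it carried the wild-type CTD. The RPB1 of either construct is resistant to α-amanitin, which depletes the cells' own RPB1, and all cells were kept in 2.5 µg/ml of this toxin for 48 hours, beginning 1 day after transfection. Each group had 2 libraries, and all cells were of 1 line. The study calls the replicates biological, but nothing in the labels tells whether the 2 libraries of a group had separate cultures, so the p-values are set by a library-to-library spread that could be technical.

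The sequencing depth was 23465029 and 19257217 counts for T4A, against 33063535 and 24695291 counts for WT, so 1 count stood for between 0.0302 and 0.0519 CPM. POLR2A, the gene of RPB1, to which construct and endogenous transcripts both contribute, was at 5378 and 5477 CPM in T4A (scaled with edgeR's trimmed mean of M-values, TMM), against 3772 and 2764 CPM in WT. It was higher in T4A by 0.73 on the log2 scale (SE 0.0771, edgeR adjusted p = 7.23e-07), and whether this difference bears on the LINC genes was not tested. All 6 markers chosen for the line (KRT8, KRT18, PAX2, NEFL, NEFM and VIM) were detected in every library, at 2.34 to 267 CPM. The markers found for leukocytes, endothelium, liver, fibroblasts and astrocytes were at 1.90 CPM or less in every library.

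LINC genes were called less often than the genome as a whole, and more of their calls were higher than lower in T4A. Of the 236 genes, 235 passed the filter on low counts, and 14 were higher and 8 lower in T4A at an adjusted p under 0.05 (edgeR quasi-likelihood test, Benjamini-Hochberg adjustment over all 18139 genes tested). These 22 genes were 9.36% of those tested, against 23.6% of all genes. The LINC genes tested had a median level of 1.54 CPM, against 6.17 CPM over all genes tested. In the highest tertile of LINC levels 25.3% were called, against 24.4% of other genes in that range. By direction, 5.96% were higher, against 10.7% of all genes, and 3.40% were lower, against 13.0% of all genes. Values are shares of a library, so more of a transcript per cell and less of the other transcripts cannot be told apart. At an unadjusted p under 0.05, 32 LINC genes were higher and 12 lower. The balance of calls moved with the scaling: library totals alone gave 9 higher and 9 lower, and upper-quartile scaling gave 20 higher and 5 lower. It was nearly even without T4A replicate 2, with 14 higher and 12 lower. The number of calls also depended on single libraries, since 5 were higher and 2 lower without WT replicate 2, 10 were higher and 4 lower without WT replicate 1, and 11 were higher and 6 lower without T4A replicate 1.

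With no threshold applied, 146 of the 235 genes (62.1%) had a positive log2 fold change of T4A over WT. The median was 0.13, against -0.01 over all genes tested, -0.03 over 13598 protein-coding genes and 0.08 over 2322 other lncRNA genes. The quartiles of the LINC genes were -0.23 and 0.52. Both T4A libraries were above both WT libraries for 72 LINC genes (30.6%, against 28.5% of all genes), and both were below for 35 (14.9%, against 30.5% of all genes). The LINC median stayed above 0 under each scaling tried. It was 0.06 with library totals alone, 0.15 with DESeq2 size factors and 0.22 with upper-quartile scaling, where the all-gene medians were -0.08, 0.01 and 0.08.

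**Figure D1:**
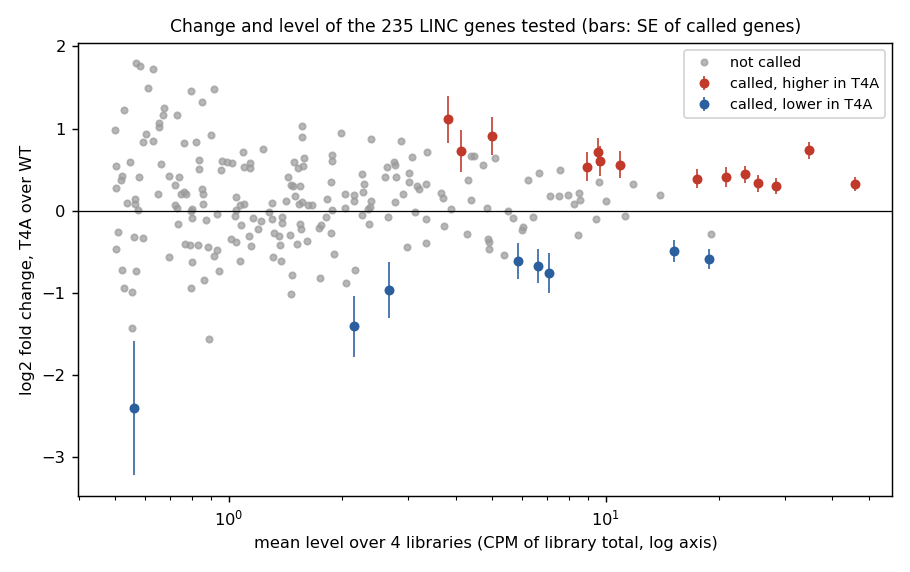
Log2 fold change of T4A over WT (y axis) of the 235 LINC genes tested against their mean level over 4 libraries in CPM (x axis, log scale). Red points are the 14 genes called higher and blue points the 8 called lower in T4A, with bars for the SE, and grey points were not called. The genes called higher all had a mean of at least 3.82 CPM, and the low-level genes on the left scatter most.

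LINC00934 and LINC02693 had the smallest p-values among the genes called higher and lower, and they were the only LINC genes called in every fit and without any 1 library. The last 50 bases of the longest annotated transcript are shown for them and for 4 further called genes, because poly(A) RNA was sequenced and the hexamers near the end are what the polyadenylation machinery reads. The sequences run 5′ to 3′ and come from the GENCODE transcript models. Capitals mark AATAAA, or ATTAAA where AATAAA is absent. The genes lie on chromosomes 12 (LINC00934, minus strand, and LINC02381, plus strand), 19 (LINC00665, minus strand), 17 (LINC02693, minus strand), X (LINC00632, plus strand) and 1 (LINC01786, plus strand).
LINC00934: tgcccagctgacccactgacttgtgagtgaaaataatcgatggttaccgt
LINC02381: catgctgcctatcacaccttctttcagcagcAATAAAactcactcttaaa
LINC00665: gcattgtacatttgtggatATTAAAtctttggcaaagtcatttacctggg
LINC02693: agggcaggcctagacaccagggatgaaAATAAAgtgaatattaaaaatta
LINC00632: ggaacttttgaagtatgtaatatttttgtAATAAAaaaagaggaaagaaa
LINC01786: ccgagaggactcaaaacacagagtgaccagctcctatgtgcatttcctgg
Of these 6 ends, those of LINC02381, LINC02693 and LINC00632 hold AATAAA, with 13, 17 and 15 bases after it. The end of LINC00665 holds ATTAAA with 25 bases after it, and those of LINC00934 and LINC01786 hold neither hexamer. An annotated end is a model and need not be the end used in these cells.

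LINC00934 (ENSG00000281196.1, chromosome 12, 119283825 to 119303380, RefSeq on GRCh38, 4 annotated exons) had the clearest rise. Its TMM-scaled level was 44.7 and 42.6 CPM in the T4A libraries, against 28.7 and 23.6 CPM in the WT libraries. Both T4A libraries were thus above both WT libraries, and the log2 fold change was 0.73 (SE 0.1, edgeR adjusted p = 1.6e-05). Its annotated span overlaps no other counted gene, so fragments of a partner on the opposite strand do not enter its count. Leaving out 1 library at a time gave log2 fold changes of 0.60 to 0.89.

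LINC02381 (ENSG00000250742.6, chromosome 12, 54126071 to 54132843) lies beside the HOXC cluster of homeobox genes and had the highest CPM of all LINC genes. It was at 52.9 and 49.9 CPM in the T4A libraries, against 43.1 and 39.2 CPM in the WT libraries, with no overlap between the groups. The log2 fold change was 0.32 (SE 0.0843, edgeR adjusted p = 0.00815). Its span overlaps SMUG1, the gene of a uracil-DNA glycosylase, and counting was without strand. SMUG1 itself was at 11.1 ± 1.36 CPM in T4A and 12.5 ± 2.58 CPM in WT (SD, n = 2) and did not pass (log2 fold change -0.16, edgeR adjusted p = 0.558).

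A further 5 of the genes called higher had means above 15 CPM and changes of under 1.5-fold. LINC01089, known from mammary cells as a growth-factor-regulated lncRNA, was at 31.2 and 31.6 CPM in T4A, against 27.2 and 23.6 CPM in WT (log2 fold change 0.30, edgeR adjusted p = 0.0324). LINC02593 was at 29.3 and 27.5 CPM in T4A, against 22.4 and 22.8 CPM in WT (0.33, adjusted p = 0.0182). LINC01962 was at 28.4 and 26.0 CPM in T4A, against 20.7 and 19.3 CPM in WT (0.44, adjusted p = 0.00363). The groups were apart in each of these genes, though the WT libraries of LINC01089 differed more than those of LINC02593 and LINC01962. LINC02609 was at 25.3 and 22.5 CPM in T4A, against 19.7 and 16.3 CPM in WT (0.41, adjusted p = 0.0155). LINC01003, a gene of 1 annotated exon, was at 20.5 and 19.3 CPM in T4A, against 15.7 and 14.7 CPM in WT (0.39, adjusted p = 0.0201). With LINC00934 and LINC02381 they made up 7 of the 10 LINC genes with the highest CPM. With library totals alone LINC01089, LINC02593 and LINC01003 were not called (edgeR adjusted p = 0.115, 0.0772 and 0.0658), and LINC01089 was also lost with no filter (0.0675) and with DESeq2 (adjusted p = 0.0544).

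Larger rises were found among genes of lower level. LINC00702 was at 4.19 and 6.38 CPM in T4A, against 2.30 and 2.58 CPM in WT, the largest rise among the called genes at 2.16-fold (log2 fold change 1.11, SE 0.283, edgeR adjusted p = 0.00647). LINC01013, whose span overlaps CCN2, the gene of a secreted matricellular protein, was at 7.45 and 5.74 CPM in T4A, against 3.52 and 3.51 CPM in WT (0.91, adjusted p = 0.00699). CCN2 itself was at 2.53 ± 0.335 CPM in T4A and 1.63 ± 0.265 CPM in WT (SD, n = 2), with a log2 fold change of 0.62 that did not pass (edgeR adjusted p = 0.258). LINC02253 was at 4.54 and 5.85 CPM in T4A, against 3.16 and 3.08 CPM in WT (0.73, adjusted p = 0.0456). LINC01550 was at 12.3 and 11.6 CPM in T4A, against 8.08 and 6.48 CPM in WT (0.71, adjusted p = 0.00404). In each of these 4 LINC genes the lower T4A library was above the higher WT library. The groups were apart in all 22 called genes, which were called on these same libraries, so this adds no support. The call of LINC02253 ended with library totals alone, with no filter and with DESeq2 (adjusted p = 0.076, 0.0807 and 0.0749).

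The last 3 genes called higher were at 9.73 to 14.3 CPM in the T4A libraries. LINC01411 was at 13.5 and 9.99 CPM in T4A, against 6.80 and 8.75 CPM in WT (log2 fold change 0.61, edgeR adjusted p = 0.0213). LINC00665, which lies downstream of the zinc finger gene ZFP14, was at 11.9 and 14.3 CPM in T4A, against 9.78 and 7.96 CPM in WT (0.56, adjusted p = 0.0169). LINC01976, with only 544 annotated exonic bases, was at 11.5 and 9.73 CPM in T4A, against 7.87 and 6.75 CPM in WT (0.54, adjusted p = 0.0316). Its call ended with library totals alone (edgeR adjusted p = 0.0669) and with DESeq2 (adjusted p = 0.0546). Per length, LINC01976 stood highest of all LINC genes tested, at 16.5 CPM per kilobase of exon, ahead of LINC00934 at 14.7 and LINC02381 at 10.6.

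Among the 8 genes called lower, LINC02693 and LINC00632 had the highest CPM. LINC02693 (ENSG00000212719.15, chromosome 17, 21528310 to 21551678) was at 14.3 and 15.6 CPM in the T4A libraries, against 20.9 and 24.1 CPM in the WT libraries. The groups did not overlap, and the log2 fold change was -0.59 (SE 0.12, edgeR adjusted p = 0.00106), with -0.69 to -0.49 when 1 library was left out at a time. Its span overlaps at least 6 other counted gene identifiers, so its count is uncertain. LINC00632 (ENSG00000203930.13, chromosome X, 140709759 to 140791357) is the locus whose transcripts give rise to CDR1as, a circular RNA. It was at 13.3 and 11.8 CPM in T4A, against 16.6 and 18.8 CPM in WT (log2 fold change -0.49, SE 0.132, edgeR adjusted p = 0.00958). Circular RNA was not measured here, and CDR1, which lies within the span, had no count in any library. Counting was without strand, and how fragments shared by overlapping genes were assigned is not stated. The lack of counts need not mean that CDR1 RNA was absent.

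LINC01515, LINC01128 and LINC02604 formed a middle group. LINC01515 was at 6.92 and 3.46 CPM in T4A, against 8.65 and 9.14 CPM in WT (log2 fold change -0.76, edgeR adjusted p = 0.0273), and its T4A libraries differed from each other more than either WT library did from the other. LINC01128 was at 4.41 and 5.80 CPM in T4A, against 7.81 and 8.36 CPM in WT (-0.67, adjusted p = 0.0231). LINC02604 was at 4.19 and 5.05 CPM in T4A, against 6.98 and 7.11 CPM in WT (-0.61, adjusted p = 0.0438). The span of LINC01128 overlaps LINC00115 and a second counted gene, and those of LINC01515 and LINC02604 overlap none. LINC02604 was not called with DESeq2 size factors, upper-quartile scaling or DESeq2 (adjusted p = 0.0504, 0.082 and 0.0949). LINC01515 was not called with upper-quartile scaling (edgeR adjusted p = 0.0507), nor LINC01128 with DESeq2 (adjusted p = 0.0519).

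The largest falls among the called genes were found in those with few counts. LINC01786 was at 1.41 and 0.904 CPM in T4A, against 3.19 and 3.01 CPM in WT, a level 2.65-fold lower in T4A (log2 fold change -1.41, SE 0.373, edgeR adjusted p = 0.00857). In GENCODE it starts 1359 bases from the ubiquitin-conjugating enzyme gene UBE2J2 and runs away from it. UBE2J2 was at 20.1 ± 2.69 CPM (SD, n = 2) in T4A and 16.2 ± 1.78 CPM in WT, and did not pass (log2 fold change 0.31, edgeR adjusted p = 0.0855). LINC00491 was at 1.37 and 2.23 CPM in T4A, against 3.88 and 3.08 CPM in WT (-0.97, adjusted p = 0.0456). LINC01376 had 3 and 4 counts in the T4A libraries, against 19 and 33 counts in the WT libraries. At -2.40 (SE 0.821, edgeR adjusted p = 0.0396) it had the largest change of the 22 genes, the widest error and the lowest level, and it met the level rule through its WT libraries. It was not called with limma-voom (adjusted p = 0.11). LINC00491 was not called with DESeq2 size factors, upper-quartile scaling or DESeq2 (adjusted p = 0.0509, 0.068 and 0.0865).

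**Figure D2:**
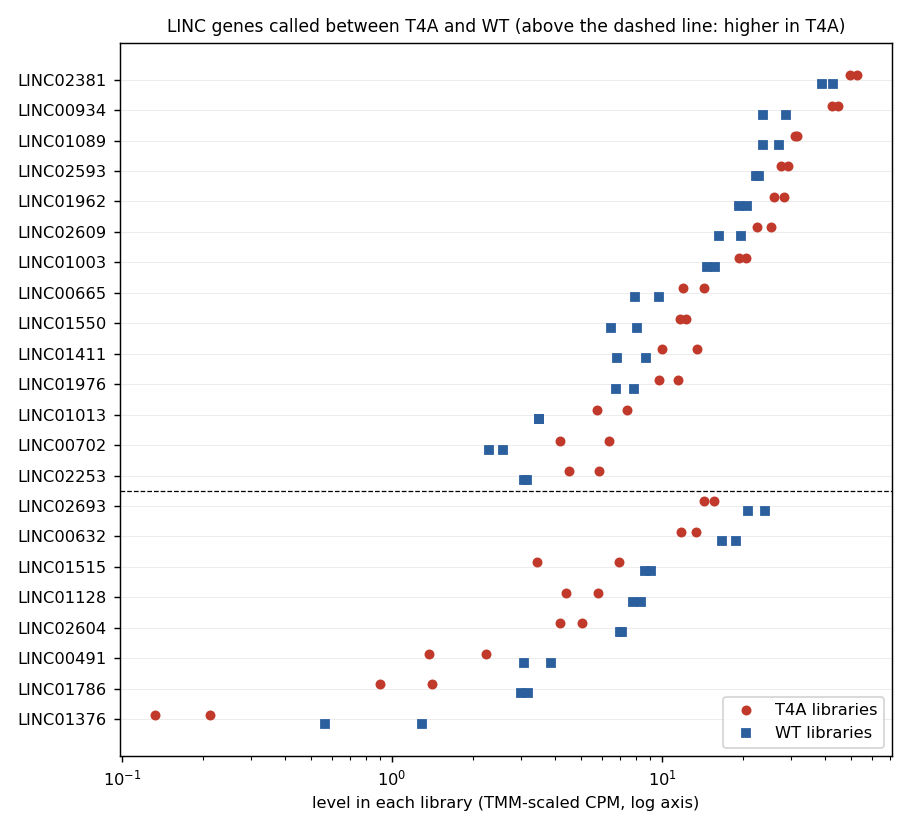
TMM-scaled CPM in each library (x axis, log scale) of the 22 LINC genes called between T4A and WT (rows). Red circles are the 2 T4A libraries and blue squares the 2 WT libraries, with the 14 genes called higher in T4A above the dashed line and the 8 called lower below it. The symbols of the 2 groups do not overlap in any row, and these same libraries gave the calls. Of all genes tested, 28.5% had both T4A libraries above both WT libraries and 30.5% had both below. Levels run from 0.132 CPM for LINC01376 to 52.9 CPM for LINC02381.

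Summed over all LINC genes of the rule that were tested, TMM-scaled levels were 874 and 843 CPM in T4A, against 766 and 764 CPM in WT. The 14 genes called higher held 298 and 283 CPM of this in T4A, against 219 and 199 CPM in WT. The 8 genes called lower held 46.1 and 45.0 CPM in T4A, against 68.6 and 74.9 CPM in WT. The rest, which were not called, also summed higher, at 530 and 515 CPM in T4A, against 479 and 491 CPM in WT. With library totals alone the rest overlapped between the groups, at 513 and 504 CPM in T4A, against 486 and 509 CPM in WT. The 10 genes with the highest CPM held 31.7% and 31.3% of all LINC counts in T4A, against 30.7% and 29.3% in WT.

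Calls followed the level. Split into tertiles at 1.04 and 2.41 CPM, the lowest tertile had 0 genes higher and 1 lower of 78, the middle one 0 higher and 1 lower of 78, and the highest one 14 higher and 6 lower of 79. The median SE of the log2 fold change was 0.681, 0.448 and 0.232 in these tertiles, so a 1.5-fold change was within 1 SE for the typical gene of the lowest one. Among the other genes of the same level ranges, 2.09%, 4.25% and 24.4% were called. In the highest range LINC genes were called about as often (25.3%) as other genes, but in other proportions: 17.7% of LINC genes were higher and 7.59% lower, while 8.17% of the other genes were higher and 16.3% lower. The median log2 fold change was 0.21 for the LINC genes of this range and -0.05 for the other genes. The 2 sets were not matched within the range. The LINC genes had a median level of 5.13 CPM, a median SE of 0.232 and 3863 exonic bases. The other genes had 9.75 CPM, 0.17 and 5439 bases. Of the 15 LINC genes at 10 CPM or more, 8 were called higher and 2 lower. Per kilobase of exon the LINC genes had a median of 0.486 CPM (range 0.0315 to 16.5), against 1.93 CPM for protein-coding genes and 0.749 CPM for other lncRNA genes.

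Exonic length, the union of all annotated exons, went with the change less closely in LINC genes than in protein-coding genes. In the tertile of LINC genes with up to 2561 bases the median log2 fold change was 0.31, close to the 0.29 of 1980 protein-coding genes in that range. In the middle tertile it was 0.03, against 0.09 for protein-coding genes. In the tertile over 4726 bases it was 0.07, against -0.17 for 7855 protein-coding genes. Of these long genes, 6 LINC genes of 79 were called higher and 4 lower (7.59% and 5.06%), while 6.33% of the protein-coding genes were higher and 25.3% lower. Across genes, Spearman's rho of the log2 fold change with exonic length was -0.140 for the 235 LINC genes, -0.131 for other lncRNA genes and -0.431 for protein-coding genes. These are descriptions across genes of the same 4 libraries, the LINC values carry larger errors than the protein-coding ones, and the difference between the classes was not tested. The median exonic length was 4476 bases for the genes called higher and 10610 bases for those called lower in T4A.

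**Figure D3:**
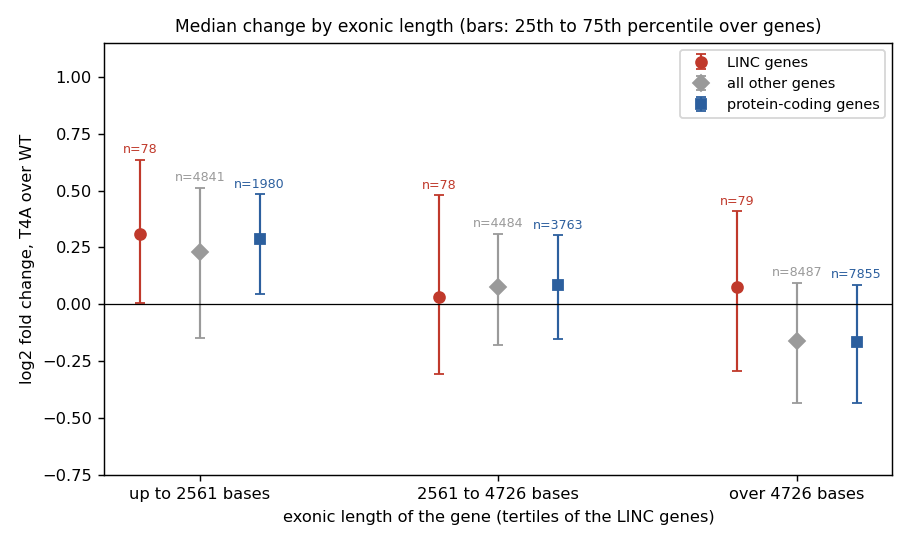
Median log2 fold change of T4A over WT (y axis) in 3 ranges of exonic length (x axis, set by tertiles of the LINC genes) for LINC genes (red circles), all other genes tested (grey diamonds) and protein-coding genes (blue squares). Bars span the 25th to 75th percentile over genes and n is the number of genes. The LINC median over 4726 bases is 0.07, where the protein-coding median is -0.17.

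Genomic span, which includes introns, showed no such order in LINC genes. The median log2 fold changes in tertiles by span (up to 7405, up to 34309 and over 34309 bases) were 0.08, 0.12 and 0.17, while those of other genes in the same ranges were 0.19, 0.07 and -0.18. Spearman's rho with span was 0.015 over LINC genes and -0.395 over protein-coding genes. By base composition, the tertile of LINC genes with a GC content under 44.2% held 0 of the genes called higher and 4 of the 8 called lower. The middle tertile held 8 higher and 2 lower, and the highest 6 higher and 2 lower. Of the other genes in these GC ranges, 5.16% were higher and 21.5% lower in the lowest, 8.91% and 13.3% in the middle, and 17.0% and 5.41% in the highest. At low GC the calls of both leaned lower, but only 4 LINC genes were called there. Without a threshold, 65.8% of the 79 LINC genes at low GC had a positive log2 fold change, against 36.1% of the other genes. The median log2 fold changes of the 3 tertiles were 0.15, 0.17 and 0.10 for LINC genes, against -0.15, -0.04 and 0.13 for the other genes. Spearman's rho with GC content was -0.069 over LINC genes and 0.343 over protein-coding genes. LINC genes of 1 exon numbered 27, of which 1 was higher and 1 lower with a median of 0.00, and the 208 spliced ones had a median of 0.15.

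LINC genes were then grouped by their place next to protein-coding genes. Of those tested, 24 start within 5 kb downstream of a protein-coding gene on the same strand. Of these, 2 were higher and 1 lower, and the median log2 fold change was 0.02. A further 25 are divergent from a protein-coding start within 5 kb, with 2 higher, 1 lower and a median of 0.07. The span of 27 overlaps a protein-coding gene, with 3 higher, 0 lower and a median of 0.21. The 160 LINC genes in none of these classes and hosting no small RNA had 8 higher, 6 lower and a median of 0.16. Their share called was 8.75%, against 9.36% of all LINC genes tested and 23.6% of all genes. In the downstream, divergent and overlapping classes the share was 12.5%, 12% and 11.1%, each from few calls.

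LINC genes and their coding neighbours were compared in pairs. In 72 pairs with both genes tested, 8 LINC entries (7 genes) and 22 coding genes were called, and in 0 pairs were both called. The coding genes were called at 30.6%, against 29.0% of all protein-coding genes, and with so few LINC calls the absence of joint calls is not a result about the pairs. The signs were the same in 10 of 23 downstream pairs, 12 of 24 divergent pairs and 7 of 25 overlapping pairs. Spearman's rho between the changes was -0.156 in downstream pairs and -0.143 in divergent pairs. Around called LINC genes, SETD1B, a histone methyltransferase gene whose start lies 103 bases from that of LINC01089, was at 11.2 ± 1.49 CPM in T4A and 13.8 ± 0.743 CPM in WT (SD, n = 2). SAMD11, divergent from LINC02593, was at 61.9 ± 0.0513 CPM in T4A and 55.2 ± 1.69 CPM in WT. Neither passed (edgeR adjusted p = 0.171 and 0.122). Counting without strand can move fragments between overlapping partners, and 127 of the tested LINC genes overlap some counted gene. Of these, 7 were higher and 4 lower (median 0.17), and of the 108 that overlap none, 7 were higher and 4 lower (median 0.08).

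**Figure D4:**
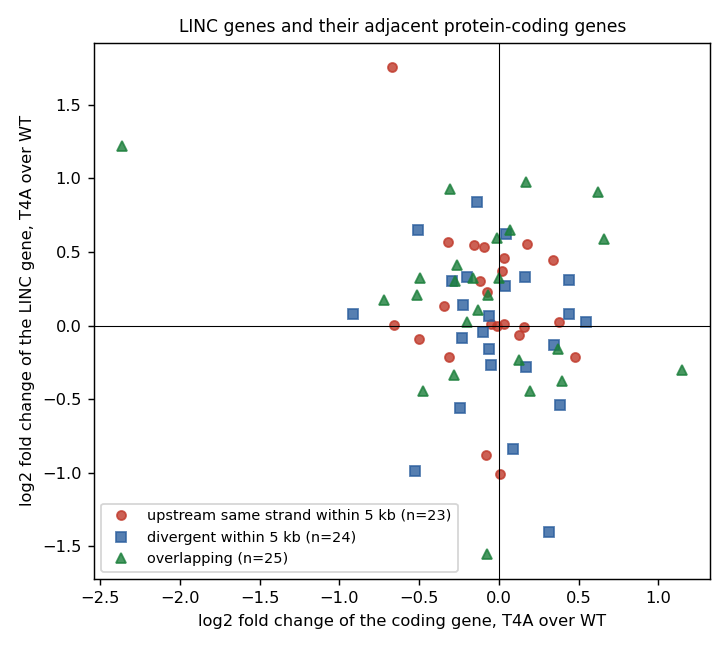
Log2 fold change of T4A over WT of LINC genes (y axis) against that of the adjacent protein-coding gene (x axis), with red circles for coding genes upstream on the same strand within 5 kb (23 pairs), blue squares for divergent pairs (24) and green triangles for overlapping pairs (25). The points fill all 4 quadrants, with the same sign in 29 of 72 pairs.

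The annotated 3′ ends of LINC genes held the polyadenylation hexamers less often than those of protein-coding genes. In the last 50 bases of the longest transcript, on its own strand, AATAAA was present in 45.5% of LINC genes, 61.3% of protein-coding genes and 39.7% of other lncRNA genes. Neither AATAAA nor ATTAAA was present in 42.6%, 24.6% and 49.8%. Among the 22 called LINC genes 15 held AATAAA, 1 held only ATTAAA and 6 held neither. Those with AATAAA had 10 higher and 5 lower of 107 (median log2 fold change 0.20), those with only ATTAAA 1 higher and 0 lower of 28 (median 0.10), and those with neither 3 higher and 3 lower of 100 (median 0.08). The shares called were 14%, 3.57% and 6%, each below the 23.6% of all genes tested. LINC genes with AATAAA also had more counts per library, with a median of 45.5, against 29.2 in those with neither, and the part of level in the count of calls was not tested.

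Start regions are shown for LINC02381, the gene called higher with the highest CPM, and LINC01786, which had the second largest fall among the called genes. They run from 250 bases before to 50 bases after the RefSeq start on GRCh38.p14, 5′ to 3′ on the plus strand, at chr12:54125821-54126120 and chr1:1273752-1274051. RefSeq and GENCODE differ in the extent of both genes. LINC02381 is at 54126071 to 54132843 in RefSeq and spans 21467 bases in GENCODE. LINC01786 is at 1274002 to 1280607 in RefSeq and spans 5198 bases in GENCODE. The regions shown therefore need not hold the GENCODE starts, from which distances to neighbours were taken. Capitals mark the CCAAT box (CCAAT) or the GC box (GGGCGG) on either strand, and marked stretches that adjoin can hold overlapping matches.
LINC02381: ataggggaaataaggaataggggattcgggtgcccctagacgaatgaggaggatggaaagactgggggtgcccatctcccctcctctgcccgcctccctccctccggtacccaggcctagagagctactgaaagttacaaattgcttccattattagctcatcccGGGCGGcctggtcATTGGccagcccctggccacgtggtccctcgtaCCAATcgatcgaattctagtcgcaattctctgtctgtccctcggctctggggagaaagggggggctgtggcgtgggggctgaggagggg
LINC01786: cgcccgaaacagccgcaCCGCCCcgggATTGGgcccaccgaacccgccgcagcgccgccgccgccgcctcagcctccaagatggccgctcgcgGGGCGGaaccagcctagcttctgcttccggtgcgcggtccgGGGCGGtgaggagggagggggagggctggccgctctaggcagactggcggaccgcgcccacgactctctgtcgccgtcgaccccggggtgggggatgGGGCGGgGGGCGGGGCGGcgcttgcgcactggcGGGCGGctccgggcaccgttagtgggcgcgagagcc
Of the tested LINC genes, 154 had such a sequence. CCAAT was found in 43.5% of them and in 34.6% of all 35116 start regions, GGGCGG in 46.1% and 45.0%, and TATAAA in 13.0% and 11.5%. Of the 12 genes called higher with a sequence, 7 held CCAAT and 8 held GGGCGG, and of the 4 called lower, 2 held CCAAT and 1 held GGGCGG. Of these 16, 0 held TATAAA. A match is a description of letters and no measurement of binding.

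Other lncRNAs gave a scale for these changes. Of 596 antisense lncRNA genes, 20 were higher and 14 lower (5.70%, median log2 fold change 0.01), and of 2322 other lncRNA genes, 93 were higher and 42 lower (5.81%, median 0.08). Of 89 lncRNA genes that once carried a LINC symbol, 9 were higher and 6 lower (16.9%, against 23.6% of all genes). Their median was 0.20 and their median level 2.91 CPM, against 1.54 CPM for the LINC genes. Among 24 lncRNAs with studied roles, 21 were tested, 4 were higher and 5 lower (42.9%, against 23.6% of all genes). Their median level was 7.98 CPM. GAS5, a host of small nucleolar RNAs, rose by 0.28 on the log2 scale, and MIR17HG, the precursor of a microRNA cluster, by 0.58. PVT1 rose by 0.55 and CHASERR by 0.50. The adjusted p-values of these 4 rises ran from 0.000597 (GAS5) to 0.0481 (PVT1) in the edgeR test. TUG1 was at -0.96, MALAT1, a nuclear speckle RNA, at -0.81 and NEAT1, the scaffold of paraspeckles, at -0.42. NORAD, a cytoplasmic RNA that binds Pumilio proteins, was at 58.5 ± 3.85 CPM in T4A and 83.2 ± 3.08 CPM in WT (SD, n = 2). The falls of these 4 passed the edgeR test at adjusted p-values from 3.54e-06 (TUG1) to 0.00376 (MALAT1). KCNQ1OT1 was also lower (log2 fold change -0.68, edgeR adjusted p = 0.0237).

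The LINC genes that were not called include well-counted ones. LINC00205, the only uncalled gene among the 10 with the highest CPM, was at 17.0 and 17.3 CPM in the T4A libraries, against 20.3 and 21.4 CPM in the WT libraries. Its groups did not overlap, but the log2 fold change of -0.28 (SE 0.113) did not pass (edgeR adjusted p = 0.0796), except with library totals alone (-0.36, edgeR adjusted p = 0.0281). LINC00511 was not tested, since its counts of 8 and 28 in T4A and 12 and 10 in WT were below the filter. Replicates disagreed by more than 4-fold in at least 1 group for 19 LINC genes, LINC00511 included, and none of them was called. LINC01018 had 0 and 20 counts in T4A, against 20 and 18 in WT, LINC01687 had 44 and 4, against 64 and 37, and LINC01530 had 18 and 1, against 23 and 50. LINC genes tested below the level rule numbered 44, of which 0 were called and 3 had an unadjusted p under 0.05 (edgeR).

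Most single calls depended on a library. Without WT replicate 2, 16 of the 22 genes were no longer called, without T4A replicate 1 it was 11, without WT replicate 1 it was 10 and without T4A replicate 2 it was 5, and no gene changed sign in any fit. A group of 1 library was assumed to vary like the other group. LINC01962, LINC02381, LINC01550 and LINC00632 lost their call only without WT replicate 2, where their log2 fold changes were 0.39, 0.25, 0.56 and -0.41. LINC00702 lost it only without T4A replicate 2 (log2 fold change 0.78), LINC01013 only without T4A replicate 1 (0.70) and LINC01786 only without WT replicate 1 (-1.36). The other 13 lost it under 2 or 3 of the 4 omissions. DESeq2 gave an adjusted p for 20 of the genes and called 14, and limma-voom called 21 of the 22.

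**Figure D5:**
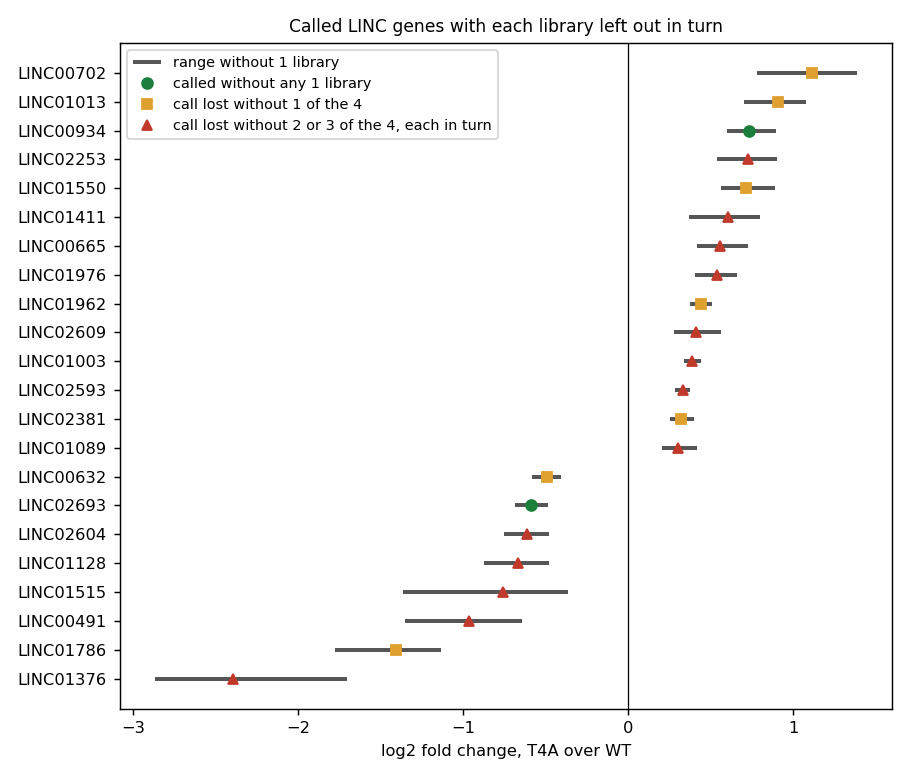
Log2 fold change of T4A over WT (x axis) of the 22 called LINC genes (rows), with grey lines for the range when each of the 4 libraries is left out in turn. Green circles are the 2 genes called without any 1 library (LINC00934 and LINC02693), orange squares the 7 that lost the call without 1 of the 4, and red triangles the 13 that lost it under 2 or 3 omissions. No line crosses 0.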

How the data were processed

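Poly(A) RNA of 2 T4A and 2 WT libraries was sequenced. Trimmomatic 0.38, HISAT2 2.2.1 and featureCounts 2.0.1 are named, with the hg38 build, in the submitters' processing notes. The authors deposited raw counts per gene, not normalized and not pooled, assigned without strand according to the study's methods. The treatment of fragments with several matches is not stated in the sources used.

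From the deposited counts, filterByExpr kept 18139 genes, and edgeR 4.0.16 (R 4.3.3) was run for T4A over WT with TMM factors (0.969 to 1.04), glmQLFit and glmQLFTest. SEs are the log2 fold change over the square root of F. With 2 libraries a group the smallest exact permutation p is 0.333, so the test borrows its spread from all genes (common coefficient of variation 0.114, with 17 prior degrees of freedom). Counts of replicates differed beyond sampling noise (chi-square per degree of freedom 4.56 in T4A and 5.66 in WT). The fit was tested on simulated data.

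Symbols, lengths, neighbours and transcript ends came from GENCODE 44 lifted to GRCh37, while the methods name GENCODE 38, and printed coordinates are those of RefSeq genes on GRCh38 (221 of the 236 LINC genes matched). Lengths are of annotated models.

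LINC genes, lists and markers were chosen with earlier results of these data known. The text names POLR2A, every LINC gene called, the 10 with the highest CPM, 3 on either side of the level limit, those not tested and examples of those with replicates over 4-fold apart. Neighbours, list members and LINC genes by position are named as such. PECAM1 was not found by symbol. Alternatives were other scalings and filters, DESeq2 1.42.0, limma-voom (limma 3.58.1), a replicate block, a length correction, other level limits and each library left out.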

Additional observations from a re-analysis of the deposited data

How the results depend on the processing

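With upper-quartile scaling 5 LINC genes were lower and the median log2 fold change was 0.22, and with library totals alone 9 were higher and the median was 0.058. DESeq2 called 3 lower. After removal of the trend of all genes on exonic length the median was 0.091. Without LINC genes that overlap another counted gene, 7 were higher and 4 lower with a median of 0.080, over the 108 genes that remained. With 1 library left out at a time, 5 to 14 were higher, 2 to 12 were lower and the median was 0.10 to 0.18. DESeq2 size factors, no filter, a mean of at least 1 CPM, limma-voom and level limits of 0.2 and 1 CPM kept both counts within 1.5 times of the 14 and 8 and kept the median above 0.

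The replicate block gave 14 higher, 8 lower and a median of 0.12, and LINC02253 lost its call. The labels do not say whether same-numbered libraries share a day or culture. The correlation of their deviations was -0.00379, which cannot decide this with 2 libraries a group.

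With 2 libraries a group and a median of 37.5 counts per library, small changes of most LINC genes were not detectable at this depth. The TMM scale, annotated lengths and counting without strand limit the values above, and differences between classes of genes were not tested.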
